A study of Rattus norvegicus with 32 samples.

Results

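Lungs of rats that had not been bled, called resting lungs here, were set against a mixed reference of organ RNA on 8 of the 32 arrays of a study of hemorrhage. The 8 arrays came from 5 sham rats (replicates 1, 3, 4, 5 and 6) and 3 control rats (replicates 1, 2 and 3). All were male Sprague-Dawley rats of 280 to 300 g, whose age was not given in the labels. Sham rats had been fitted under isoflurane with arterial catheters and an abdominal telemetry device, had recovered for 7 to 10 days and were not bled. Control rats carried no instruments and were not manipulated. The 22 bled lungs used for comparison came from instrumented rats that lost 40% of their estimated blood volume and were killed at 7 times from 1 to 72 h later. The reference on every array was a mixture of equal amounts of RNA from organs of untreated rats, said to be 10 organs, of which 9 are named: brain, heart and skeletal muscle, liver and jejunum, kidney, spleen, skin, and the lung itself. The question addressed here is which transcripts a lung at rest holds in a larger or smaller share of its RNA than that mixture.

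Groups were taken from the labels, except that sham replicate 2 was left out on the basis of its measured values. On that array the median log2 ratio of 41 liver genes was 2.41, whereas it lay between -0.62 and -0.13 on the 8 arrays used, and its correlation with them over all features was -0.05 to 0.20. The 8 arrays held 12151 to 12895 values for 13056 spots, and they correlated with each other at 0.45 to 0.75. For features on exactly 2 spots, including neighbouring spots without a symbol taken as a pair, the 2 spots correlated at 0.70 to 0.86 within an array. Each value below is a log2 ratio of lung over pool, centred so that 0 is the median spot of an array. A value of 1 is a ratio 2-fold that of the median spot. Folds and shares of RNA are stated relative to that spot. The ratio carries no information on brightness, so neither absolute levels nor levels of different genes can be compared. The labels give no dyes, and the sign of the ratio was taken from the lung genes themselves: the direction of the surfactant and club cell genes is therefore not a result. No array with exchanged dyes was known, and a dye effect on a gene cannot be told apart from its lung over pool ratio. The labels do not number the animals, so the p-values describe no more than how much these samples scattered, and with 8 arrays precision is limited.

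The lung exposes a thin epithelium to air and a dense capillary bed to blood. Its alveoli are lined by flat type I cells, across which gas diffuses, and by cuboidal type II cells, which secrete surfactant, a film of lipid and protein that lowers surface tension. Club cells and ciliated cells line the small airways, alveolar macrophages clear particles from the air spaces, and an elastic matrix lets the tissue recoil. The transcription factor NKX2-1 acts with FOXA factors at promoters of surfactant and club cell genes. Pieces of whole lung were used, so fewer cells of a type and less RNA per cell cannot be told apart in any value below.

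Promoters are shown for 2 of the genes highest in lung, the club cell secretory protein Scgb1a1 and surfactant protein B (Sftpb), because both are textbook targets of NKX2-1. The 250 bases before each annotated start are from RefSeq on build GRCr8, written 5′ to 3′ on the gene's strand, with the letters CTCAAG, a core of the NKX2-1 motif, or their reverse complement CTTGAG in capitals. Scgb1a1 lies on the minus strand at chr1:215409687-215409936, and its match begins 92 bases before the start.
Scgb1a1: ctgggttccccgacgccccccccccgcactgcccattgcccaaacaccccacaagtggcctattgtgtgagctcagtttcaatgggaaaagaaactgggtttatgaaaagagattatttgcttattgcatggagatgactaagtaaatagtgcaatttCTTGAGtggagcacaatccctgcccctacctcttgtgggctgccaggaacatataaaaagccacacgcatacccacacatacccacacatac
Sftpb lies on the plus strand at chr4:105917338-105917587, and its matches begin 110 and 25 bases before the start.
Sftpb: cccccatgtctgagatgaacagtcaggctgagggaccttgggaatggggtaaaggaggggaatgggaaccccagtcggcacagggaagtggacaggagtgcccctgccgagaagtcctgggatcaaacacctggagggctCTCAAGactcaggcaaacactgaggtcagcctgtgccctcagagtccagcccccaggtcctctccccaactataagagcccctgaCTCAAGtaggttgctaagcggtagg
These letters are common: on either strand they occurred in 13.3% of all 27457 promoters of that table and in 467 of the 4074 promoters matched to a tested gene (11.5%). Among genes called at least 2-fold above the pool 9 of 109 promoters held them (8.26%), and among those at least 2-fold below 50 of 456 (11.0%). A FOXA core, TGTTTAC or its reverse complement, stood in 0 of 109 and 17 of 456 of these promoters, and in 90 of 4074 (2.21%). The promoters of Sftpa1, Lyz2, Ager and Hopx held neither set of letters. That of Akap5, also high in lung, held CTCAAG beginning 236 bases before its start. A match is a description of the sequence and not of binding.

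Of 6184 features tested against 0, 1664 were called above the pool (26.9%) and 1820 below it (29.4%) by limma at an adjusted p under 0.05. Genes with 1 symbol made up 5017 of them, of which 1492 were called above (29.7%), 1415 below (28.2%) and 2110 neither way. A larger difference was more often a deficit. With a mean of at least 1, 134 genes were lung-enriched (2.67%), and with a mean of -1 or less 559 were lung-poor (11.1%). At a limit of 2 on either side the numbers were 12 and 89. With sham replicate 2 included, 1389 features were called above and 1517 below the pool, and 105 and 688 of them were at least 2-fold from it. All arrays with a value lay on the same side of 0 for 123 of the 134 lung-enriched and 509 of the 559 lung-poor genes. Dctn4 and Ereg at 1.00 were just inside the upper limit and Pld2 at 1.00, which is 0.99968 before rounding, just outside; Cga, at -1.00134, was just inside the lower limit and Rgs4, at -0.99893, just outside. Lung is itself a part of the pool, which sets an arithmetic limit on the upper side: in an equal mixture of 9 organs a transcript made in lung alone would reach a ratio of 9, a log2 of 3.17. For the 10 organs stated the limit would be 10, a log2 of 3.32, and centring on the median spot makes both limits approximate. Of the 39991 single-array gene values 26 exceeded the limit for 9 organs and 20 that for 10, and 0 gene means exceeded either. No such bound exists below 0, where 11 gene means lay under -3.17.

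**Figure D1:**
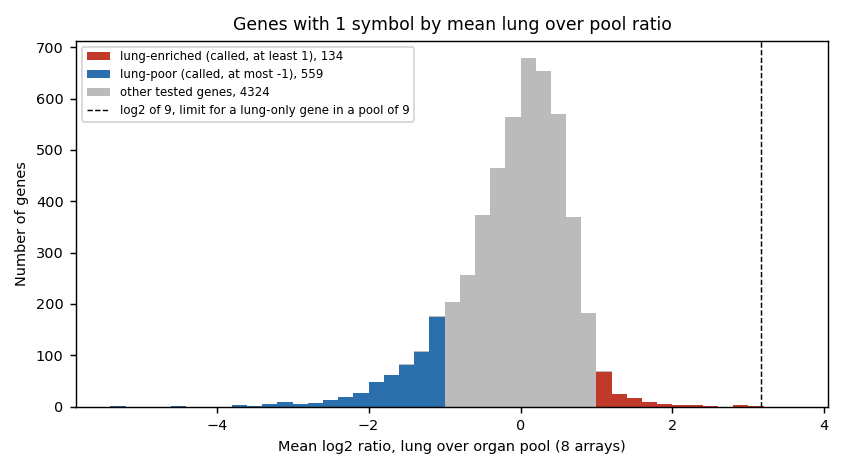
Number of genes with 1 symbol by mean log2 ratio of lung over organ pool on the 8 arrays. Colours separate 134 lung-enriched genes, 559 lung-poor genes and all others; the tail to the left is longer and holds more genes than the tail to the right.

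Type II cell genes held 3 of the 5 highest means. Of 12 members measured, 8 were called above the pool, 0 below and 4 neither way, with a median of 1.07 against -0.04 over all features. For this list and those below, the shares over all features were 26.9% above and 29.4% below. The lists hold genes with 1 symbol only, whose own shares were 29.7% above and 28.2% below. Surfactant protein C (Sftpc), made only by type II cells, had values of 2.22 at the lowest, 3.06 at the median and 4.48 at the highest. Its mean was 3.13 ± 0.64 (SD, n = 8), an 8.73-fold ratio, with an adjusted p of 5.05e-06. The approximate limit is 9 for a pool of 9 organs and 10 for the 10 stated. Surfactant protein A (Sftpa1), a lectin that binds microbes, lay between 2.29 and 3.91 with a median of 2.99. All 8 arrays thus placed both transcripts more than 4-fold above the pool, while the sham 2 array that was left out gave -3.48 for Sftpc, whose mean over 9 arrays was 2.39.

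Surfactant protein B (Sftpb), which spreads the lipid film and whose promoter is printed above, ranged from 1.76 to 3.89 around a median of 2.94 (mean 2.80 ± 0.61, adjusted p = 7.57e-06). Surfactant protein D (Sftpd), the other lectin of the family, was lower at 0.49 to 1.77 and a median of 1.24. Cathepsin H (Ctsh), a protease that trims the precursor of surfactant protein B, was the most even member: 1.24, 1.49 and 1.56 were its lowest, median and highest values, for a mean of 1.45 ± 0.10 (adjusted p = 1.89e-06). The phosphate transporter Slc34a2 of type II cells averaged 1.23 ± 0.75 and syndecan-1 (Sdc1) 0.62 ± 0.44. Members not called were Cebpa at 0.20 ± 0.34, mucin 1 (Muc1) at 0.16 ± 0.50, napsin A (Napsa), another protease of surfactant protein maturation, at -0.12 ± 0.25 and E-cadherin (Cdh1) at -0.28 ± 0.40.

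Of 11 club and ciliated airway cell genes 8 were called above the pool and 0 below, with a median of 0.71. Scgb1a1, the most abundant secreted protein of club cells, had the highest mean of all genes. Its values ran from 1.58 on control replicate 3 through a median of 3.34 to 3.96, and the mean was 3.15 ± 0.76 (adjusted p = 1.06e-05). Enzymes that oxidise or hydrolyse inhaled compounds followed. The flavin monooxygenase Fmo2 ranged from 0.77 to 2.77 with a median of 2.14 (mean 1.93 ± 0.61, adjusted p = 4.47e-05), and the carboxylesterase Ces1d from 1.33 to 2.40 with a median of 1.68. Retinal dehydrogenase 1 (Aldh1a1) averaged 1.10 ± 0.42, the club cell cytochrome Cyp2f4 0.74 ± 0.13 and ezrin (Ezr), which ties the membrane to actin, 0.71 ± 0.43.

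Genes of cilia were less clear. Tektin-1 (Tekt1), a filament of the ciliary axoneme, stood at 0.27 to 1.28 and was called above the pool (0.60 ± 0.41, adjusted p = 0.00513). Foxj1, the master regulator of motile cilia, was not called at -0.95 ± 1.25. Its arrays reached from -2.72 to 0.77, and 2 of them held a floor spot, that is a ratio at or below 0.05. It was called below the pool without control replicate 1 (adjusted p = 0.0179) or sham replicate 5 (adjusted p = 0.0362). The cytochrome Cyp4b1 was not called either at 0.11 ± 0.37, and its sequences disagreed, with means of -0.78 and 1.00.

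The type I cell list had the highest median of all lists, 1.54, with 6 of 9 members above the pool, 1 below and 2 not called. Akap5, an anchor for protein kinase A, had 1.97, 2.52 and 2.89 as its lowest, median and highest values (mean 2.49 ± 0.32, adjusted p = 1.7e-06). The receptor for advanced glycation end products (Ager), which sits on the basal face of type I cells, ranged from 0.77 to 2.38 around a median of 1.91. Hopx, a homeodomain protein without DNA binding, lay between 1.48 and 3.13 with a median of 2.15. Groups overlapped for Ager and Hopx, although their lowest values were those of control lungs.

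Caveolin 2 (Cav2), a coat protein of membrane pits, averaged 1.57 ± 0.29, the chloride channel protein Clic5 1.54 ± 0.44 and the water channel Aqp5, which faces the air space, 0.82 ± 0.62. Podoplanin (Pdpn), a standard rat type I marker, was not called at 0.32 ± 0.35 (adjusted p = 0.0526), but was called above the pool without control replicate 1 (adjusted p = 0.0429) or sham replicate 4 (adjusted p = 0.0263). The cytochrome Cyp1b1 was below the pool at -0.90 ± 0.44.

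**Figure D2:**
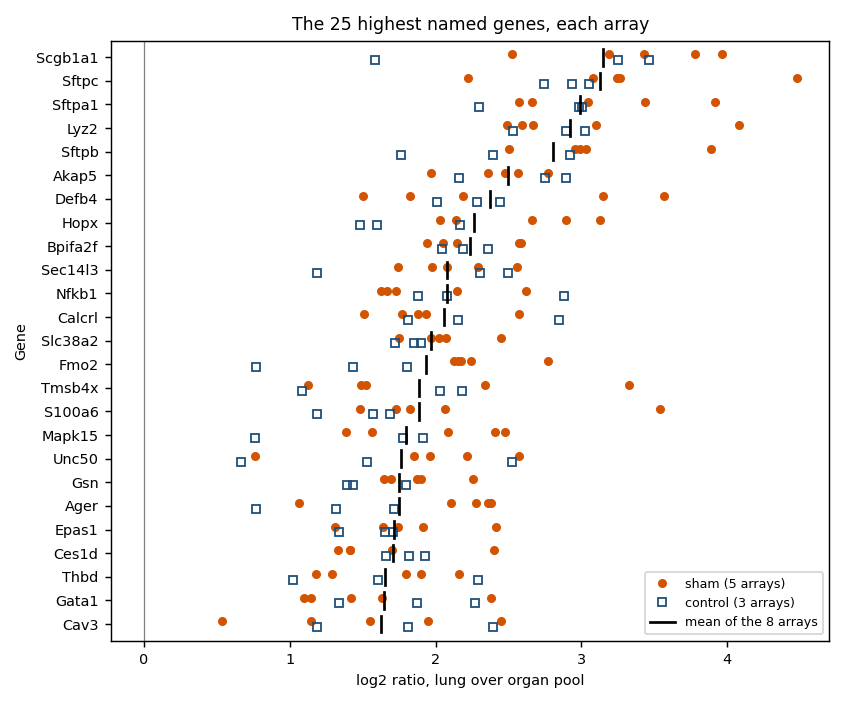
Log2 ratio of lung over organ pool for the 25 genes with the highest means among called genes with a value above 0 on all 8 arrays; each point is 1 array and each bar the mean. Sftpc, Scgb1a1 and Sftpa1 lead near a log2 of 3, and sham and control points overlap in most rows.

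Endothelial genes were above the pool for 12 of 21 members, below it for 0 and not called for 9, with a median of 0.57. The highest mean was that of Calcrl, a receptor subunit for the vascular peptide adrenomedullin, which had 1.51, 1.91 and 2.85 as its lowest, median and highest values (mean 2.06 ± 0.44, adjusted p = 9.31e-06). Ramp2, the partner that gives it affinity for adrenomedullin, ranged from 0.52 to 1.88 around a median of 1.28 (mean 1.27 ± 0.43, adjusted p = 9.2e-05). The peptide itself, Adm, chosen after its values were seen, averaged 0.51 ± 0.35 (adjusted p = 0.00634) and was called above the pool. The related peptide genes Calca and Calcb were called below it, at -0.88 ± 0.43 and -1.53 ± 0.51. Epas1, the hypoxia-inducible factor of endothelium, ranged from 1.31 to 2.41 with a median of 1.68. Thrombomodulin (Thbd), which turns thrombin from clotting to protein C activation, lay between 1.03 and 2.29, and Plvap, the diaphragm protein of capillary pores, between 1.03 and 1.89.

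Other members were nearer 0. The adhesion molecule Icam1 averaged 0.96 ± 0.74, with 2.44 on sham replicate 1 and -0.05 on control replicate 1. The water channel Aqp1 of capillaries averaged 0.66 ± 0.29, angiotensin-converting enzyme (Ace), carried by pulmonary capillary cells, 0.58 ± 0.44, and endothelin-1 (Edn1) 0.43 ± 0.37. The VEGF receptors Kdr at 0.03 ± 0.27 and Flt1 at 0.10 ± 0.18, carbonic anhydrase 4 (Car4) at 0.40 ± 0.55 and E-selectin (Sele) at -0.23 ± 0.59 were not called. Without control replicate 3 Sele was called below the pool at -0.40 (adjusted p = 0.0249).

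The 38 genes of vasoactive and natriuretic signalling share Calcrl, Ramp2, Ace and Edn1 with the endothelial list. Of them 12 were above the pool (31.6%, against 26.9% of all features), 7 below (18.4%, against 29.4%) and 19 not called, with a median of 0.23. Cyclooxygenase 2 (Ptgs2), which makes the prostaglandin precursor, ranged from 0.87 to 1.83 with a median of 1.45 (mean 1.40 ± 0.28, adjusted p = 1.25e-05). Several members lay as far below: the C-type natriuretic peptide Nppc at -1.53 ± 0.84 (n = 7), the clearance receptor Npr3 at -1.35 ± 0.69 and the VIP receptor Vipr2 at -1.32 ± 0.65. Thromboxane synthase (Tbxas1) averaged -1.01 ± 0.25, with every array between -1.28 and -0.69, and neuronal nitric oxide synthase (Nos1) -1.17 ± 0.40.

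Macrophage genes did not move as a block: 10 of 21 were above the pool, 5 below and 6 not called, with a median of 0.14. Lysozyme 2 (Lyz2), which digests bacterial walls and is also made by rat type II cells, had values of 2.49, 2.78 and 4.08 at the lowest, median and highest array (mean 2.92 ± 0.52, adjusted p = 2.73e-06). Osteopontin (Spp1) averaged 0.70 ± 0.23. Among those below, the Fc receptor Fcgr2a averaged -0.86 ± 0.19 and the integrin chain Itgam -0.79 ± 0.48 (n = 7). The elastase Mmp12 averaged -1.39 ± 0.96, and on the control arrays alone it was -0.50 and not called (adjusted p = 0.312). The Fc receptor Fcgr2b averaged -1.04 ± 0.97, and on the control arrays alone it was -0.46 and not called (adjusted p = 0.396). Spleen, rich in myeloid cells, is part of the pool, and whether this bears on any of these ratios was not tested.

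Neutrophil genes split too, with 4 of 8 above, 2 below and 2 not called. Lipocalin 2 (Lcn2), an iron-trapping protein that airway epithelium also makes, averaged 0.90 ± 0.44 and the defensin Np4 0.54 ± 0.18. The collagenase Mmp8 stood at -4.12, -2.51 and -1.51 as lowest, median and highest value (mean -2.54 ± 0.80, adjusted p = 3.96e-05). The calprotectin subunits S100a8 at 0.13 ± 0.48 and S100a9 at 0.07 ± 0.73 were not called.

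Among 26 lymphocyte genes 6 were above (23.1%, against 26.9% of all features), 4 below (15.4%, against 29.4%) and 16 not called. The pan-leukocyte phosphatase Ptprc averaged 0.76 ± 0.33 and Cd48 0.80 ± 0.30. The T cell receptor chain Cd3d at -0.05 ± 0.38 and Cd8a at -0.01 ± 0.41 were not called, while the NK receptor Klrk1 averaged -1.54 ± 1.18 and the T cell adhesion molecule Cd2 -0.92 ± 0.50. Mast cell genes were mostly low: 6 of 11 were below the pool, 1 above and 4 not called, with a median of -0.51. Histidine decarboxylase (Hdc), which makes histamine, averaged -1.16 ± 0.88, the IgE receptor chain Fcer1a -1.11 ± 0.47 and the tryptase Tpsab1 -1.03 ± 0.47 (n = 7).

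Matrix and mesenchymal genes were above the pool for 13 of 32 members, below for 4 and not called for 15, with a median of 0.33. Sparc, a collagen-binding matrix protein, ranged from 1.26 to 2.22 around a median of 1.44 (mean 1.59 ± 0.35, adjusted p = 1.49e-05). Matrix Gla protein (Mgp), an inhibitor of calcification, averaged 1.43 ± 0.32, the metalloprotease inhibitor Timp3 1.22 ± 0.23 and fibronectin (Fn1) 1.14 ± 0.36. Elastin (Eln), the fibre of recoil, averaged 0.81 ± 0.52. Among the members called below, the growth factor receptor Pdgfrb averaged -1.35 ± 0.57 and the actin-binding caldesmon (Cald1) -1.24 ± 0.53.

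**Figure D3:**
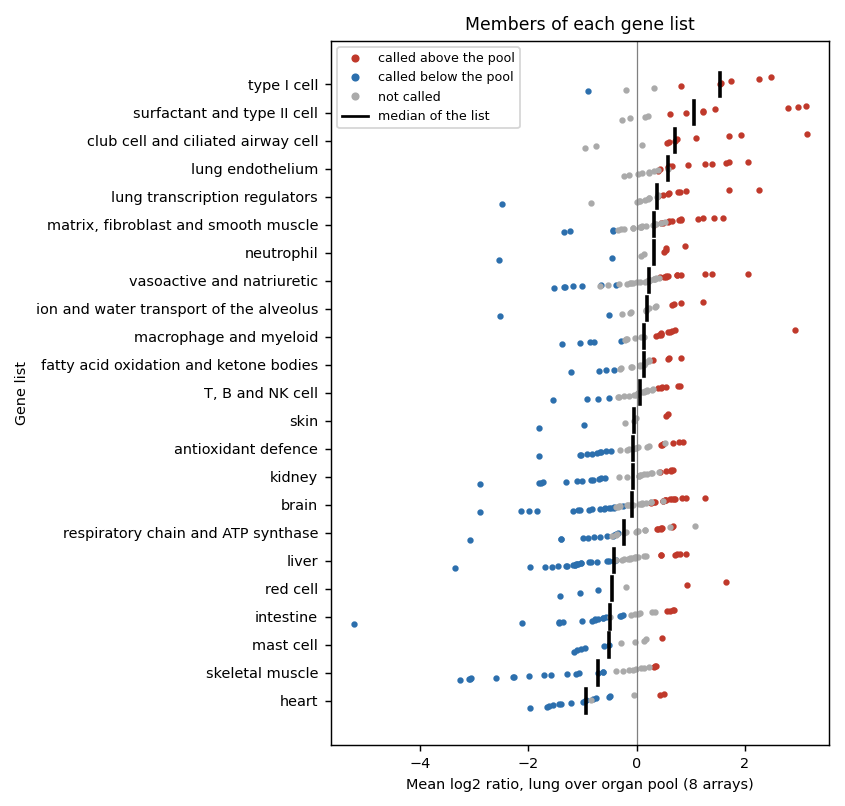
Mean log2 ratio of lung over organ pool for each tested member of the gene lists; each point is 1 gene, coloured by its call, and each bar the median of its list. Medians of the type I, type II, club cell and endothelial lists lie to the right of 0, at 1.54, 1.07, 0.71 and 0.57, and those of heart, skeletal muscle, intestine and liver to the left, at -0.94, -0.71, -0.50 and -0.43.

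Of 20 transcription regulators known from lung 9 were above the pool, 1 below and 10 not called. Nkx2-1, the factor whose motif letters were searched above, stood at 0.57, 0.91 and 1.39 as lowest, median and highest value (mean 0.91 ± 0.25, adjusted p = 8.92e-05). Its partners Foxa2 and Foxa1 averaged 0.80 ± 0.38 and 0.77 ± 0.48. Liver and intestine, 2 organs of the pool, also make FOXA factors, and whether this bears on the ratios was not tested. Meox2, a homeobox gene of muscle and vessel precursors, was the member below at -2.49 ± 0.98 (n = 7).

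Of 15 genes of ion and water transport 4 were above (26.7%, against 26.9% of all features), 2 below (13.3%, against 29.4%) and 9 not called. The water channel Aqp3 was low on every array, from -1.70 down to -6.57 on control replicate 1, which held a floor spot. Its median was -1.91. The sodium channel subunit Scnn1a at 0.34 ± 0.42 and the sodium pump subunit Atp1b1 at 0.35 ± 0.50, both parts of alveolar fluid clearance, were not called. Scnn1a was called above the pool without control replicate 1 (adjusted p = 0.0389) or control replicate 2 (adjusted p = 0.0410). Antioxidant genes were called above for 7 of 27 (25.9%) and below for 10 (37.0%). Among them thioredoxin (Txn1) averaged 0.86 ± 0.46 and peroxiredoxin 4 (Prdx4), an enzyme of the secretory pathway, -1.80 ± 1.14.

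Ribosomal protein genes, a list made by symbol, were above the pool for 34 of 48 members and below for 0, with a median of 0.66. Rpl10 averaged 1.26 ± 0.39, Rps14 1.16 ± 0.51 and Rps21 1.13 ± 0.60 (n = 8 each). Array medians of the list ran from 0.41 to 1.33. Rpl26 had the lowest mean at -0.55 ± 0.75 and was not called. Of 31 genes of the respiratory chain 12 were below (38.7%, against 29.4% of all features), 7 above (22.6%, against 26.9%) and 12 not called. Their median was -0.24, and array medians ran from -0.49 to 0.22, so its sign differed between arrays. Cytochrome c (Cycs), the electron carrier, ranged from -1.68 to -0.83 (mean -1.39 ± 0.27, adjusted p = 1.22e-05), and cytochrome c1 (Cyc1) averaged -3.08 ± 1.29 (n = 7) with floor spots on 2 arrays. Of 21 genes of fatty acid oxidation 4 were above and 4 below (19.0% each).

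Several of the 25 highest genes are not usual lung markers. The beta-defensin Defb4, an antimicrobial peptide of epithelia, had 1.501, 2.24 and 3.56 as lowest, median and highest value (mean 2.37 ± 0.68, adjusted p = 2.71e-05). Bpifa2f, a secreted protein related to parotid secretory protein, was tighter at 1.94 to 2.59 (mean 2.24 ± 0.24, adjusted p = 1.7e-06). Both are secreted proteins of moist epithelia. Nfkb1, the p105 precursor of NF-kappa-B, averaged 2.08 ± 0.46, the lipid-binding protein Sec14l3 2.08 ± 0.45 and the amino acid transporter Slc38a2 1.97 ± 0.23. The actin-binding proteins thymosin beta 4 (Tmsb4x) and gelsolin (Gsn) averaged 1.89 ± 0.75 and 1.75 ± 0.28, and the calcium-binding protein S100a6 1.89 ± 0.72.

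The remaining ones were the kinase Mapk15 at 1.80 ± 0.56, the Golgi protein Unc50 at 1.76 ± 0.73, the erythroid factor Gata1 at 1.64 ± 0.49 and caveolin 3 (Cav3), a caveolin known from muscle, at 1.63 ± 0.66. Cav3 ranged from 0.54 to 2.45 on the 8 arrays, on the same side as Cav2 and opposite to most skeletal muscle genes. Whether its spots also bound transcripts of other caveolins was not tested. Gata1 stood at 1.10 to 2.38, while other red cell genes lay on both sides: Rhag, a blood group glycoprotein of the red cell membrane, averaged -1.41 ± 0.23, Slc4a1, the anion exchanger band 3, 0.93 ± 0.23, and alpha-globin (Hba-a1) was not called at -0.20 ± 0.68.

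Skeletal muscle genes held many of the lowest ratios. Of 27 members 16 were below the pool, 3 above and 8 not called, and 13 were lung-poor, with a median of -0.71. Myl11, the regulatory light chain of fast fibres, had -4.22, -3.76 and -3.27 as its lowest, median and highest values (mean -3.74 ± 0.36, adjusted p = 4.08e-07), a share 13.3-fold larger in the pool. Muscle glycogen phosphorylase (Pygm) ranged from -4.25 to -2.17 around -3.37 (mean -3.27 ± 0.70, adjusted p = 6.06e-06). The calcium pump Atp2a1 averaged -3.09 ± 1.23, the light chain Myl1 -3.09 ± 1.30, skeletal actin (Acta1) -3.05 ± 0.50 and the heavy chain Myh1 -2.60 ± 0.58. Every array placed these 6 genes below the pool, but all 6 belong to the set of lowest genes. That set was limited to genes below the pool on every array, so this was a condition of the choice and not a result. Ratios near -4 or lower are coarse because the deposited values are multiples of 0.01.

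Heart genes were below the pool for 14 of 18 members, the highest share of any list, with 2 above and 2 not called and a median of -0.94. Myoglobin (Mb), the oxygen store of heart and red muscle, ranged from -2.54 to -1.54 around a median of -1.95 (mean -1.97 ± 0.35, adjusted p = 4.71e-06). The calcium release channel Ryr2 averaged -1.65 ± 0.71 (n = 6), the natriuretic peptide Nppb -1.61 ± 0.50, the ventricular light chain Myl2 -1.54 ± 0.36 and the alpha heavy chain Myh6 -1.43 ± 0.45. All 8 arrays lay below the pool for Mb, Myl2 and Myh6.

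Liver genes were below the pool for 22 of 41 members, above for 6 and not called for 13, with a median of -0.43. The same list was used to leave out sham replicate 2, so its counts and median are not independent of that choice. Albumin (Alb), the main plasma protein, had -4.48, -3.51 and -1.54 as lowest, median and highest value (mean -3.35 ± 0.93, adjusted p = 1.86e-05). On the sham 2 array that was left out it stood at 2.62, and its mean with that array was -2.69. Apolipoprotein B (Apob) averaged -1.97 ± 0.69, prothrombin (F2) -1.69 ± 0.35 and fetuin (Ahsg) -1.56 ± 0.83. With sham replicate 2 included Ahsg averaged -1.09 and was not called (adjusted p = 0.0745). Cyp7a1, the rate-limiting enzyme of bile acid synthesis, was above the pool instead, at 0.63 to 0.91 (mean 0.75 ± 0.08, adjusted p = 5.01e-05).

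Kidney genes were mixed, with 12 of 28 below, 5 above and a median of -0.07. Ggt1, gamma-glutamyl transferase of the brush border, averaged -2.89 ± 0.76 and the cystine transporter subunit Slc7a9 -1.81 ± 0.42. Uromodulin (Umod), the most abundant urinary protein, had a median of -1.05 but -6.57 on control replicate 1, and its mean of -1.77 ± 2.04 (adjusted p = 0.0309) was not called when 1 of 3 other arrays was left out. The adjusted p was 0.0654 without sham replicate 1, 0.0517 without control replicate 3 and 0.05 without sham replicate 4, whereas the mean was -1.08 without control replicate 1 (adjusted p = 0.00304).

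Intestinal genes were below the pool for 16 of 27 members and above for 4, with a median of -0.50. Reg3b, a lectin secreted by gut and pancreas, had the lowest mean of all genes, -5.24 ± 0.71 (n = 7). It had a floor spot on 6 arrays, so its size is coarse. The ileal bile acid carrier Fabp6 averaged -2.12 ± 0.91, galectin 4 (Lgals4) -1.43 ± 0.24 and the fatty acid carrier Fabp2 -1.01 ± 0.41. Of 7 skin genes 2 were above and 2 below (28.6% each, near the shares over all features). The differentiation keratin Krt1 averaged -1.81 ± 0.52 (n = 7) and the basal keratin Krt5, also made by basal cells of the airway, 0.58 ± 0.31.

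Brain genes lay near the shares of all features (26.9% above and 29.4% below). Of 48 members 15 were above the pool (31.25%), 17 below (35.4%) and 16 not called, with a median of -0.09. The synaptic vesicle protein Syn1 averaged -2.89 ± 0.72 (n = 6), the myelin enzyme Cnp -2.13 ± 0.29 and the glutamate transporter Slc1a2 -1.85 ± 0.54. The astrocyte filament Gfap was above the pool on all 8 arrays, with 0.48, 1.14 and 2.86 as lowest, median and highest value (mean 1.26 ± 0.75, adjusted p = 0.00147).

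**Figure D4:**
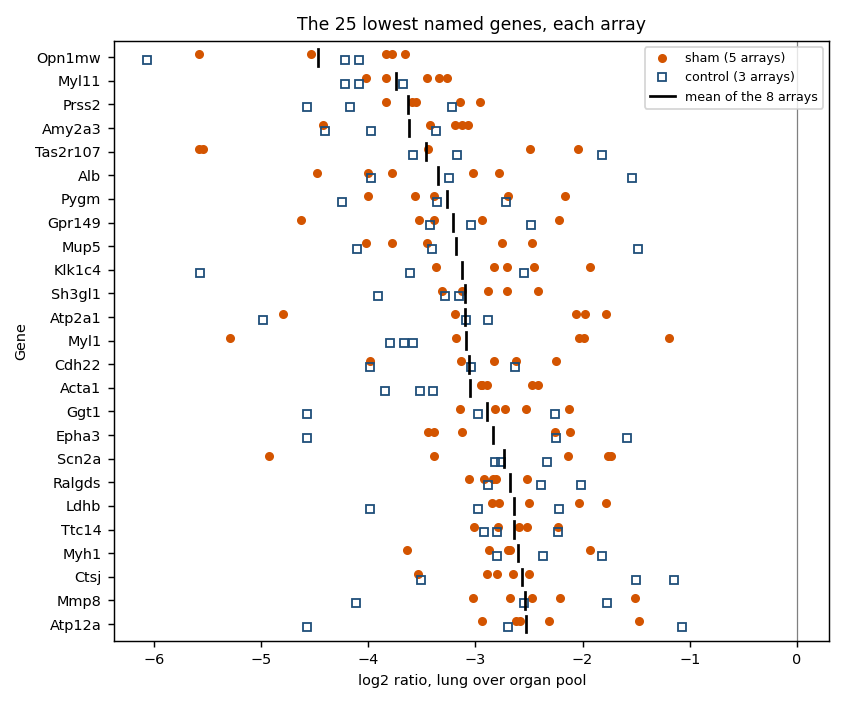
Log2 ratio of lung over organ pool for the 25 genes with the lowest means among called genes with a value below 0 on all 8 arrays; each point is 1 array and each bar the mean. Opn1mw leads at a mean of -4.47, Prss2, Amy2a3 and Alb fall between -3 and -4, and the muscle genes run from Myl11 at -3.74 to Myh1 at -2.60.

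The lowest genes also included some whose best-known tissue is none of the 9 organs named. The cone opsin Opn1mw of the retina had -6.07, -4.15 and -3.66 as lowest, median and highest value (mean -4.47 ± 0.89, adjusted p = 3.55e-06), with a floor spot on 4 arrays. Pancreatic trypsin 2 (Prss2) ranged from -4.57 to -2.95 (mean -3.63 ± 0.55) and pancreatic amylase (Amy2a3) from -4.42 to -3.07 (mean -3.62 ± 0.56). The bitter taste receptor Tas2r107 averaged -3.46 ± 1.44, but -2.19 when floor spots were left out, the orphan receptor Gpr149 -3.21 ± 0.74 and the placental cathepsin Ctsj -2.57 ± 0.86. Whether spots of these genes also bound related transcripts was not tested; Mup5, Klk1c4, Amy2a3 and Prss2 belong to families of close relatives, so their names are uncertain.

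Other low genes had varied roles. The endophilin Sh3gl1 averaged -3.10 ± 0.45, the Ral exchange factor Ralgds -2.68 ± 0.34 and the repeat protein Ttc14 -2.64 ± 0.30, each with all arrays below -2. Adhesion and guidance receptors were represented by cadherin 22 (Cdh22) at -3.06 ± 0.63 and Epha3 at -2.84 ± 0.97, and ion transport by the sodium channel Scn2a at -2.73 ± 1.05 and the proton pump Atp12a at -2.53 ± 1.05. In all, 115 of the 559 lung-poor genes had a floor spot on some array, and lung-poor genes were more variable (median SD over arrays 0.57) than lung-enriched ones (0.41).

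Among tested genes with a value on all 8 arrays and no floor spot, the 8 with the largest SD over arrays, 1.60 to 1.98, were not called. Hmgb2, a chromatin protein of dividing cells, ran from -1.17 on sham replicate 6 to 4.62 on sham replicate 1. Bpifa1, a secreted airway protein, ran from -1.88 on control replicate 1 to 3.70 on sham replicate 6, and galectin 3 (Lgals3) of macrophages from -3.12 on sham replicate 3 to 2.16 on sham replicate 4. Tfec, a transcription factor, stood at 4.02 on sham replicate 3 and between -0.87 and -0.19 on the other 7 arrays. Without sham replicate 3 Tfec was called below the pool at -0.58 (adjusted p = 0.00355), and Hmgb2 was called above it without control replicate 3 (adjusted p = 0.0377) or sham replicate 6 (adjusted p = 0.0204). Of the 8 genes 6 had their highest value on a sham array and 2 on a control array.

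Sham lungs did not differ detectably from control lungs: 0 of 6208 features were called (0%) by limma, and 215 had a p under 0.05 before adjustment. In simulated data 26% of changes of 1 log2 unit and 84% of changes of 2 units were recovered, so small differences could not be seen. The median of the 134 lung-enriched genes was 1.31 in sham and 1.16 in control lungs, and that of the 559 lung-poor genes -1.40 in sham and -1.42 in control lungs.

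The bled lungs were set beside the resting ones. All bled rats carried instruments, whereas 3 of the 8 resting arrays came from control rats without them. Bleeding and instrumentation therefore cannot be fully told apart in this difference, and bled lungs were not compared with sham lungs alone. The median ratio of the lung-enriched genes was 1.19 in resting and 1.04 in bled lungs, and that of the lung-poor genes -1.40 in resting and -1.11 in bled lungs. Of 5982 features 642 were called higher (10.7%) and 543 lower (9.08%) in resting than in bled lungs by limma, 19.8% in all. Of these calls 54.2% were thus higher in resting lungs, and 71.1% were when the deposited values were not centred. The total of 1185 fell to 686 without control replicate 1 and to 781 without control replicate 2. Resting values chose the lung-enriched and lung-poor genes, so the medians of these genes tend to lie nearer 0 on other arrays. Nothing is read from these medians or from how many of the genes were called here. Among list members, E-cadherin (Cdh1) averaged -0.28 in resting and -1.60 in bled lungs, a difference of 1.32 (adjusted p = 0.00029), and Ctsh 1.45 in resting and 0.74 in bled lungs, a difference of 0.71 (adjusted p = 0.000445). Sftpc at 3.13 in resting and 2.98 in bled lungs was not called (adjusted p = 0.724), nor was Ager (adjusted p = 0.842).

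**Figure D5:**
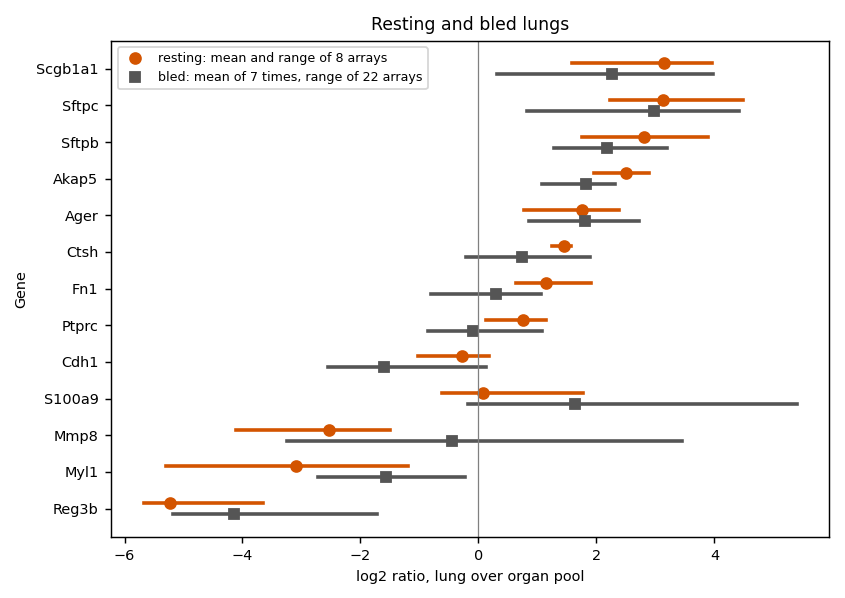
Mean log2 ratio of lung over organ pool in resting lungs (8 arrays) and bled lungs (22 arrays, mean of 7 time means) for selected genes of the text. Points are means and bars the range over arrays; the means of Sftpc (3.13 in resting, 2.98 in bled lungs) nearly coincide, and those of Mmp8 lie far apart.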

How the data were processed

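RNA of rat lung was measured on 2-colour spotted cDNA arrays against a pool of organ RNA. The deposited values are log2 ratios; per the labels' protocols, total RNA isolated with TRI Reagent was reverse transcribed and labelled. What the authors used as dyes, scanner software and normalization is not given in the sources used here. On the linear scale 100% of deposited values were multiples of 0.01, so strongly negative log2 ratios are coarse, and ratios at or below 0.05 are called floor spots. A shift common to all genes, had the authors removed one, could not be seen in these values.

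Each array's median was subtracted, all spots of a gene with 1 symbol in the platform annotation were averaged, and spots without 1 symbol were averaged by accession or neighbouring pair, which gave 6223 features. Of 13056 spots 10652 had 1 symbol. Features with a value on at least 6 of the 8 arrays were tested against 0 with limma's lmFit and eBayes (version 3.58.1, R 4.3.3; two-sided, Benjamini-Hochberg over 6184 features). An adjusted p under 0.05 is a call; lung-enriched and lung-poor genes were called and at least 2-fold from the pool. The pool has no spread of its own in this test. Sham was compared with control, and resting with bled lungs (mean of 7 time means, without replicate 3 at 16 h, whose liver gene median was 1.54). Errors are SDs over arrays. Control and sham share replicate numbers, which do not pair animals. On simulated data of 6184 features 45%, 92% and 97% of changes of 0.5, 1 and 2 log2 units were recovered, and 0.136% of unchanged features were called. There 100 features changed by each amount and 5884 did not change. That is a much smaller changed share than was called in the real data, so these rates need not hold for the real data.

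Genes and gene lists were chosen with earlier results of these data known. The text names from the 25 highest and 25 lowest called genes with all 8 arrays on the same side, up to 6 called members of a list by size, members not called, and the 8 most variable genes. Sdc1, Tekt1, Adm, Calca, Calcb, Ace, Edn1, Tbxas1, Nos1, Eln and Cyp7a1, and the genes beside the size limit, were chosen after their values were seen. Counts over a list are descriptions and not tests. Alternatives were no centring, quantile normalization, other filters, medians of spots, group subsets, a replicate block, a test against 0.5 and leaving out each array.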

Additional observations from a re-analysis of the deposited data

Results flagged for a closer look

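Arrays that stood apart from the other arrays for a named gene were counted over 159 genes. In 22 of them the highest or lowest array was separated from the rest by more than Dixon's 95% limit, which chance alone passes in about 1 of 20 groups. Sham replicate 4 was high for 7 of them, at 4.48 for Sftpc, 4.08 for Lyz2, 3.54 for S100a6, 2.86 for Gfap, 1.87 for Txn1, 1.78 for S100a9 and 1.67 for Car4. Control replicate 1 was low for 5, at -6.57 for both Aqp3 and Umod, -5.57 for Klk1c4, -4.57 for Ggt1 and -4.25 for Klrk1. Control replicate 3 stood at 1.02 for Sele, 0.0758 for Cyp1b1 and -2.39 for Myl2. Sham replicate 3 stood at 4.02 for Tfec and 0.38 for Ahsg, sham replicate 5 at -3.66 for Reg3b and -5.06 for Prss1, sham replicate 6 at -0.48 for Myh6 and -0.72 for Krt1, and sham replicate 1 at 0.0208 for Aqp1.

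Resting and bled lungs differed by limma's test of that difference for 38 of 157 named genes tested (24.2%, against 19.8% of all features), a choice that in part used the resting values. Among the called epithelial genes resting minus bled was 1.32 for Cdh1, 0.88 for Scgb1a1, 0.71 for Ctsh, 0.67 for Akap5, 0.65 for Muc1, 0.63 for Sftpb, 0.56 for Napsa, 0.53 for Aqp5 and 0.50 for Cyp4b1, but -0.78 for Tekt1. It was 0.69 for Ace, 0.63 for Plvap, -0.46 for Kdr and 0.73 for Ptgs2 among vascular genes. It was 0.84 for Fn1, 0.53 for Sparc, 0.85 for Ptprc, 0.87 for Foxa1, 0.86 for Gata1, 0.60 for Bpifa2f and 0.76 for Cpa1. Negative differences were -2.09 for Mmp8, -1.57 for S100a9, -0.78 for Fcgr2a, -0.84 for Hdc and -0.73 for S100a6 among myeloid and mast cell genes and the S100 family. Others were -1.53 for Myl1, -1.19 for Prdx4, -1.08 for Reg3b, -1.06 for F2, -1.02 for Mup5, -0.91 for Rhag, -0.79 for Unc50, -0.77 for Opn1mw, -0.72 for Ctrc, -0.59 for Pkm, -0.55 for Slc1a2 and -0.54 for Txn1.

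Liver genes were high on 2 arrays outside the comparisons, with medians of 2.41 on sham replicate 2 and 1.54 on replicate 3 at 16 h, against at most -0.13 on the resting arrays used. Of the bled arrays used, replicate 4 at 6 h had a liver gene median of 0.363 and replicate 2 at 48 h one of 0.0782, and all others lay below 0. Without both, an alternative chosen after seeing the data, 30 of the 38 named genes were still called, and F2 and Mup5 stood at -1.04 and -0.85 (adjusted p = 0.000723 and 0.0486).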

How the results depend on the processing

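With the 3 control arrays only, 135 features were called above and 311 below the pool, and 95 and 287 at least 2-fold from it; 3 arrays give the test less to estimate the spread from. A test against 0.5 in place of 0 called 238 above and 715 below. Leaving out each array in turn gave 1451 to 1614 above, 1644 to 1794 below, 127 to 180 at least 2-fold above, 802 to 867 at least 2-fold below, and 686 to 1269 calls between resting and bled lungs. The last count was 686 without control replicate 1 and 781 without control replicate 2, and the cause was not tested; it was 996 without 6 h replicate 4 and 48 h replicate 2. With the replicate number as a random block the counts were 1639, 1795, 148 and 821; arrays of 1 number showed a correlation of 0.0741, and the fixed block called 0 features between sham and control lungs. Quantile normalization called 1464 above and 2026 below. Centring on spots with 1 symbol and adjusting over genes alone were chosen after seeing the data and gave 1545 and 1503 above. The median of each gene list kept its sign without centring, under quantile normalization and with centring on spots with 1 symbol. Of the 159 named genes followed through the alternatives, 135 were called, and 67 of these were called under every alternative run. No gene followed changed its side of 0 while called. The genes beside the size limit, Rpl10, Rps14, Rps21, Rpl26, Actb, Calca and Calcb were not followed. They are also not in the counts of named genes flagged for a closer look. With sham replicate 2 included Sdc1, Ace, Edn1, Aqp1, Fcgr2b, Ahsg and Aldoc were not called. Ace was also not called on sham arrays only (0.37, adjusted p = 0.111). Without floor spots Tas2r107 averaged -2.19 and Umod -1.08. On control arrays Mmp12 averaged -0.50. The number of arrays and the coarse steps of ratios near or below 0.05 limit the precision of the lowest ratios.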

Other observations

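Glycolytic genes, a list added after the data were seen, lay mostly below the pool, with 7 of 14 members called below, 2 above and 5 not called (median -0.29, against -0.04 over all features). The lactate dehydrogenase subunits Ldhb and Ldha averaged -2.64 ± 0.68 and -1.13 ± 0.32 (SD, n = 8). Gapdh, on 34 spots of each array, ranged from -1.81 to -0.58 (mean -1.21 ± 0.39, adjusted p = 8.35e-05), and pyruvate kinase (Pkm) averaged -1.09 ± 0.32. The aldolase Aldoc was 1 of the members above, at 0.38 ± 0.27. Among other genes on 34 spots, beta-actin (Actb) was above the pool at 0.45 ± 0.34, so Gapdh and Actb, both common normalisation standards, stood on opposite sides of the median.

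Genes of the exocrine pancreas, also listed after the data were seen, were below the pool for 16 of 26 members, above for 2 and not called for 8 (median -0.55). Besides Prss2 and Amy2a3, chymotrypsin C (Ctrc) averaged -2.60 ± 0.30 (n = 7), trypsin 1 (Prss1) -2.26 ± 1.29 (n = 7) and the trypsin inhibitor Spink1 -1.56 ± 0.45. Carboxypeptidase A1 (Cpa1) at 0.08 ± 0.41 and colipase (Clps) at 0.20 ± 0.39 were not called. Pancreas is not among the 9 organs named for a pool said to hold 10, and whether it was in the pool was not tested.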
